A study of Mus musculus with 11 samples.

Results

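Keratins are the intermediate filament proteins of epithelial cells, and 10 of their genes were followed here through 3 mouse cell lines: Krt8, Krt18, Krt7, Krt19, Krt20 and Krt23 of simple (single-layered) epithelium, Krt5, Krt14 and Krt17 of basal and appendage epithelium, and Krt80. They were taken by gene symbol and make up 10 of the 23355 gene symbols in the deposited tables. The study, on how cells perceive combinations of bone morphogenetic protein (BMP) ligands, sequenced RNA from cultured cells of each line with no ligand treatment named in the labels. The unit is FPKM, fragments scaled to transcript length and to the mapped fragments of the library, which is per length and so allows levels to be compared between genes.

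NMuMG is an epithelial line from the mammary gland of NAMRU mice, E14 is an embryonic stem (ES) line of the 129/Ola strain grown on gelatin with serum and leukemia inhibitory factor, and NIH3T3 is an embryonic fibroblast line from NIH/Swiss mice. NMuMG had 4 replicates, of which 1 and 3 were parental cultures with no transgene and 2 and 4 carried a BRE reporter, a transgene read out through BMP-responsive elements. ES cells had 3 replicates, of which 1 was parental and 2 and 3 carried the reporter; ES replicate 2 is the mean of 2 technical runs. NIH3T3 also had 3 replicates, of which 1 was parental. Replicates 2 and 3 of NIH3T3 come from tables that name the line but not the culture, and although the remaining NIH3T3 samples are labelled as carrying the reporter, these 2 tables enter no comparison of reporter with parental cells. The reporter line of each cell type carries 1 name throughout, and whether it is a single clone is not given in the sources used here.

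Library totals differed little: 10353 to 11049 table entries reached 1 FPKM in each library, and summed FPKM lay between 429703 and 514980. Read counts are not part of the tables used here, so the depth behind each value is unknown and an FPKM near 0 has no counting interval. The numbers in the table names fall into 3 runs, called library series here. Series 1 holds NMuMG 1 and 2 and ES 1 and 2, series 2 holds NMuMG 3 and 4, ES 3 and NIH3T3 1, and series 3 holds NIH3T3 2 and 3. Nothing in the labels says that the replicates were separate cultures, so p-values measure the spread between these samples, which may be technical.

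A keratin filament is built from pairs of 1 type I (acidic) and 1 type II (basic) chain, and an unpaired chain is normally degraded. Krt8 (type II) and Krt18 (type I) are the first keratins of the embryo and the core pair of simple epithelia, to which Krt7 (type II) and Krt19 (type I) are added in ducts and Krt20 (type I) in gut, urothelium and Merkel cells. Krt5 (type II) and Krt14 (type I) form the pair of basal cells, including the myoepithelium of the mammary gland, whereas Krt17 (type I) belongs to hair follicles, glands and injured epidermis.

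The promoters of 4 keratins that were high in NMuMG and low in both other lines are given here. Krt19 had the same pattern but no promoter entry. RefSeq entries (build GRCm38.p6, 250 bases before the annotated start to 50 after it) were found for 7 of the 10 keratins. Capitals mark every match, on either strand, to 5 short motifs: TATAAA (the core of the TATA box), CCAAT (common to many promoters), GGGCGG (the GC box), TGANTCA (known from AP-1 sites) and CCACCC (the kind of site bound by Krüppel-like factors).

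Krt8 promoter, chr15:102004293-102004592, minus strand: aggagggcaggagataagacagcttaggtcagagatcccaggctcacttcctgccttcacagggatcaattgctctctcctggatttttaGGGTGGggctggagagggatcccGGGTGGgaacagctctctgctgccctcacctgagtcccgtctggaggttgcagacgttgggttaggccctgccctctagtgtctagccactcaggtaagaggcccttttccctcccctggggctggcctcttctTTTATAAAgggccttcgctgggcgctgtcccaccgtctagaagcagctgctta
Krt18 promoter, chr15:102027966-102028265, plus strand: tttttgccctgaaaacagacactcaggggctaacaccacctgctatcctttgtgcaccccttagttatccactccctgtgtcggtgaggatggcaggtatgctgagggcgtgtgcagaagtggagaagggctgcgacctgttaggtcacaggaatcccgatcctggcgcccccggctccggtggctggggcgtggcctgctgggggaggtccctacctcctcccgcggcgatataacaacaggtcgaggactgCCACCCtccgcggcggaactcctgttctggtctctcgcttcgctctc
Krt7 promoter, chr15:101412153-101412452, plus strand: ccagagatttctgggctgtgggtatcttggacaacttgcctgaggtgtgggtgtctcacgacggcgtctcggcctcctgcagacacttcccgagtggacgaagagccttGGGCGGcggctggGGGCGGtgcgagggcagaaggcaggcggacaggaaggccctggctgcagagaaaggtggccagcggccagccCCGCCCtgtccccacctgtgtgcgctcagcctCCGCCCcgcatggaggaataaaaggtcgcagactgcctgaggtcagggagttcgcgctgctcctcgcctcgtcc
Krt20 promoter, chr11:99438104-99438403, minus strand: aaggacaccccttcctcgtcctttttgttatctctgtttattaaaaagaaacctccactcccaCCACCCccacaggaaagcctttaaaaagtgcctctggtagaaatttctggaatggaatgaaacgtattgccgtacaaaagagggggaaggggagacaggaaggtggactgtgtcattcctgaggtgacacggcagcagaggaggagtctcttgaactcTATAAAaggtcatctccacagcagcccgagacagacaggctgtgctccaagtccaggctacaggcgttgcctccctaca

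No motif is in all 4 windows, and the windows differ in base composition. Krt7 holds 4 GGGCGG matches, a motif found in 35.7% of the 32851 promoters of the same length, and none of the other motifs. Krt20 holds TATAAA starting 29 bases before the start and 1 CCACCC. Krt8 holds TATAAA on both strands as a single overlapping run at the annotated start, and 2 CCACCC on the strand opposite to the gene. Krt18, its filament partner, holds only 1 CCACCC, just after the start. Of all 32851 promoters 13.6% hold TATAAA and 31.5% hold CCACCC. Krt7 has 21 CpG dinucleotides (66.3% G or C) and Krt18 has 17 (61.3%), against 6 in Krt8 (58.0%) and 6 in Krt20 (50%) and a median of 7 (52.7%) over all promoters. Krt8 and Krt18 lie next to each other on chromosome 15, on opposite strands and pointing away from each other, with 23874 bases between their start sites.

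NMuMG cells carried a simple-epithelial keratin set at very high levels and almost none of the basal set. Krt18, Krt8, Krt19 and Krt7 were each at 353 FPKM or more in all 4 replicates, Krt20 was at 18.8 FPKM or more, and Krt80 was between 2.42 and 4.18 FPKM. Krt17, Krt14, Krt5 and Krt23 stayed under 0.4 FPKM in every NMuMG replicate, where Krt23 had the highest value, 0.328 FPKM. The 10 keratins summed to 4384, 5551, 5139 and 6640 FPKM in replicates 1 to 4, between 0.980% and 1.49% of all FPKM in a library.

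**Figure D1:**
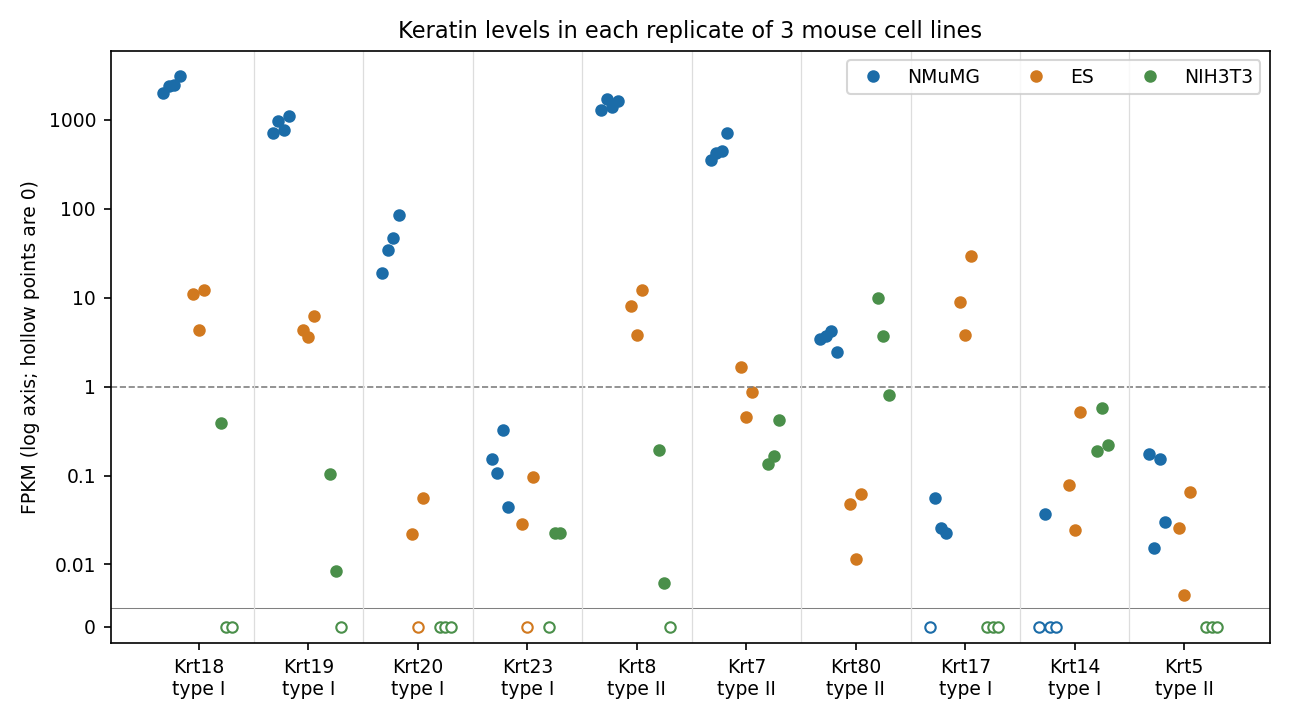
FPKM on a log axis for the 10 keratins (x axis, with their type) in each replicate of NMuMG (blue, n = 4), ES (orange, n = 3) and NIH3T3 (green, n = 3); hollow points in the bottom strip are values of 0, and the dashed line is 1 FPKM. NMuMG points lie far above the others for Krt18, Krt19, Krt20, Krt8 and Krt7, ES points lie above for Krt17, and Krt14, Krt5 and Krt23 stay under the line in every replicate.

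Krt18 was the most abundant keratin of NMuMG, at 2017, 2428, 2474 and 3089 FPKM in replicates 1 to 4. It was at 10.9, 4.35 and 12.2 FPKM in the 3 ES replicates and at 0.386, 0 and 0 FPKM in the 3 NIH3T3 replicates. The lines did not overlap, with NMuMG far above ES cells and NIH3T3 at or near 0. Between NMuMG (2502 ± 442 FPKM, SD, n = 4) and ES cells (9.14 ± 4.20, n = 3) the limma log2 change was -8.04 (SE 0.297, adjusted p = 9.42e-09).

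Krt8, the usual partner of Krt18 in simple epithelia, was at 1281, 1698, 1392 and 1653 FPKM in NMuMG. ES cells had 8.08, 3.76 and 12.1 FPKM and NIH3T3 0.192, 0.00622 and 0 FPKM. The order of the lines was the same as for Krt18, and within ES cells the same replicate, 2, was lowest and the same one, 3, highest. The log2 change from NMuMG to ES cells was -7.50 (SE 0.288, adjusted p = 1.13e-08). Of the 50-base windows of the Krt8 transcript, 29.7% also occur in another annotated transcript, mostly in the pseudogene Krt8-ps (26.9%), so Krt8 levels depend on how the authors' tools shared such reads, which is not given in the sources used here. For Krt18 the share was 0.720%, for Krt7 0.222% and for Krt19 and Krt20 0.

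Krt19, the smallest type I keratin, which lacks most of the tail domain, was at 710, 966, 776 and 1105 FPKM in NMuMG. It was at 4.38, 3.60 and 6.19 FPKM in ES cells and at 0.105, 0.00853 and 0 FPKM in NIH3T3. Its ES replicates were closer together than those of Krt8 or Krt18, with the highest 1.72 times the lowest against 3.22 and 2.80 times. The log2 change from NMuMG to ES cells was -7.28 (SE 0.197, adjusted p = 1.96e-09).

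Krt7, the type II keratin of ducts and glands, was at 353, 421, 445 and 707 FPKM in NMuMG. ES cells had 1.65, 0.457 and 0.869 FPKM and NIH3T3 0.133, 0.166 and 0.420 FPKM. ES and NIH3T3 ranges came close to each other without overlapping, and ES replicate 1 was highest here, not replicate 3. The log2 change from NMuMG to ES cells was -7.91 (SE 0.262, adjusted p = 5.05e-09), and ES cells did not pass the test against NIH3T3 (0.65, SE 0.280, adjusted p = 0.0666).

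Krt20, a keratin of intestinal and urothelial lining cells, was at 18.8, 34.2, 47.5 and 84.9 FPKM in NMuMG, the widest relative spread of the 5 high keratins, with the highest replicate 4.52 times the lowest. ES replicates 1 to 3 had 0.0220, 0 and 0.0563 FPKM, and every NIH3T3 replicate was listed at 0. The log2 change from NMuMG to ES cells was -5.33 (SE 0.389, adjusted p = 1.12e-06). With a pseudocount of 0.1 it was -8.34. With parental cultures only, 2 NMuMG replicates against 1 ES replicate, it was -4.92 and missed the threshold (adjusted p = 0.0611).

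In every NMuMG replicate the order was Krt18, Krt8, Krt19, Krt7, Krt20 and Krt80, and the ranges of neighbours in this order did not overlap. The closest were Krt19, whose lowest replicate was at 710 FPKM, and Krt7, whose highest was at 707 FPKM. Under 1 FPKM the order had no such gaps: Krt23 (0.0446 to 0.328), Krt5 (0.0152 to 0.174), Krt17 (0 to 0.0554) and Krt14 (0 to 0.0373) overlapped.

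NMuMG cells were checked against epithelial and mammary markers. The adhesion gene Cdh1 (E-cadherin) was at 150 to 195 FPKM and the tight junction gene Ocln at 7.23 to 13.1 FPKM. The claudins Cldn3 and Cldn7 were listed at 0, Cldn4 was at 0.303 FPKM or less and the splicing factor Esrp1 at 0.0333 FPKM or less, so 3 of 7 epithelial markers reached 1 FPKM in each replicate. Of 9 luminal mammary markers 1, the pioneer factor Foxa1 (6.89 to 15.4 FPKM), reached 1 FPKM; the milk protein genes Csn2 and Wap and the hormone receptor gene Pgr were listed at 0. Of 6 basal or myoepithelial markers, 1 to 3 reached 1 FPKM, with summed levels of 7.54 to 18.6 FPKM in NMuMG. These were Mylk at 5.73 to 11.1 FPKM in every replicate, Cnn1 at 10.9 and 3.65 FPKM in replicates 1 and 2, and Acta2 at 1.99 FPKM in replicate 1. The basal master regulator Trp63 was at 0.0236 FPKM or less in NMuMG. The basal keratins were at 0.0373 FPKM or less (Krt14) and 0.174 FPKM or less (Krt5).

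Among epithelial transcription factors, the NMuMG replicates had 68.5 to 92.4 FPKM of Hnf4a, a regulator of liver and gut epithelium, and 6.99 to 18.1 FPKM of Cdx2, the intestinal homeobox gene. Of the 17 factors listed, 8 reached 1 FPKM in each NMuMG replicate. They included Klf5 (61.0 to 88.5 FPKM), Ehf (26.3 to 68.3), Klf4 (30.5 to 51.6) and Elf3 (11.9 to 22.0). Krt20 was at 18.8 to 84.9 FPKM, and a link between any of these factors and Krt20 was not tested.

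ES cells held the same simple keratins as traces and, in addition, Krt17. Krt17 was at 8.99, 3.78 and 29.2 FPKM in ES replicates 1 to 3, against 0, 0.0554, 0.0258 and 0.0228 FPKM in NMuMG. All 3 NIH3T3 replicates were at 0. Every ES replicate was far above every other replicate of the series, and the ES replicates themselves differed widely, the highest being 7.73 times the lowest. The log2 change of ES cells against NMuMG was 3.46 (SE 0.469, adjusted p = 9.29e-05). It was 2.75 within library series 1 (adjusted p = 0.00517) and 4.88 within series 2, where ES replicate 3 is the single ES sample, and 6.34 over all replicates with a pseudocount of 0.1. Krt17 passed the filter on low values only through its 3 ES replicates, so it had to differ, and the same holds for Krt42, described next. The 2 technical runs of ES replicate 2 gave 3.93 and 3.63 FPKM, so the difference between ES replicates exceeded that between runs.

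Krt17 shares 3.99% of its 50-base windows with other transcripts, mostly with Krt14 (3.66%), which was at 0.0781, 0.0245 and 0.523 FPKM in ES cells. Of the 42 other keratin symbols in the tables, 9 were at 0 in every replicate and 3 reached 1 FPKM anywhere. Krt42, a type I keratin gene with its nearest end 1893 bases from Krt17 on chromosome 11, was at 9.91, 4.56 and 9.47 FPKM in ES cells. In NMuMG it was at 0 in 3 replicates and 0.0251 FPKM in replicate 3, and in NIH3T3 it was listed at 0 (ES against NMuMG 3.09, SE 0.214, adjusted p = 7.62e-07). Krt42 shares 0.268% of its windows, with Krt17. Krt14, on the other side of Krt17 at 48707 bases, stayed under 1 FPKM. Krt10, the type I keratin of differentiated epidermis, was at 1.37 to 4.93 FPKM in all 10 replicates, and Krt79 reached 1.30 FPKM in NMuMG replicate 3 alone.

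Unlike in NMuMG, the keratins of ES cells had no firm order. Krt17 (14 ± 13.4 FPKM), Krt18 (9.14 ± 4.20), Krt8 (7.98 ± 4.18) and Krt19 (4.72 ± 1.33) overlapped in range. Krt17 was the highest in replicate 3 and Krt18 in replicates 1 and 2. Krt7 followed at 0.991 ± 0.604 FPKM, and the remaining 5 keratins were under 1 FPKM. Replicate 3 had the highest Krt8, Krt18, Krt19 and Krt17, and replicate 2 the lowest of each.

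ES cells held the pluripotency genes of their label, 8 of 8 reaching 1 FPKM with sums of 4290 to 5502 FPKM. Lists for the first epithelia of the embryo, where Krt8 and Krt18 are known to switch on, were read beside the keratins. Trophectoderm genes summed to 23.9, 11.8 and 14.7 FPKM in ES replicates 1 to 3, with 2 of 8 genes at 1 FPKM or more in each and Cdx2 at 0.0832 to 0.334 FPKM. Primitive endoderm genes summed to 36.8, 11 and 14.8 FPKM, with 7, 3 and 5 of 9 genes at 1 FPKM or more and Ttr at 0 in replicates 2 and 3. Replicate 1 was highest in both lists, as for Krt7, whereas Krt8, Krt18, Krt19 and Krt17 were highest in replicate 3. Replicate 2 was lowest in both lists and for each of these keratins. Tfap2c and Dab2 were the largest single parts of the replicate 1 sums. Most genes of the lists were highest in replicate 1, but Cdx2, Eomes, Gata3 and Sox17 were highest in replicate 3. Whether a few differentiated cells carry the keratin RNA was not tested, and in such bulk samples fewer cells of a type and less RNA per cell cannot be told apart.

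Against the levels in NMuMG, ES cells held 0.530% of the Krt8 level, 0.531% of Krt19, 0.365% of Krt18, 0.206% of Krt7 and 0.0563% of Krt20. Other genes abundant in NMuMG were read the same way: the ES level was 0.0276% of the NMuMG level for Tm4sf4, 0.0331% for Sprr1a, 0.0421% for Tmem176b, 0.117% for Tspan8 and 0.375% for Clu. Krt8, Krt18 and Krt19 in ES cells thus stood above 4 of these 5 genes and near Clu, and Krt20 stood among them. Series 1 and 2 each hold both NMuMG and ES libraries, and a transfer of reads between libraries was not tested.

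NIH3T3 fibroblasts lacked the simple keratins but not Krt80. Krt80, a type II keratin reported in many epithelia, was at 10.0, 3.70 and 0.815 FPKM in NIH3T3, at 3.42, 3.68, 4.18 and 2.42 FPKM in NMuMG and at 0.0483, 0.0116 and 0.0619 FPKM in ES cells. NIH3T3 replicates lay on both sides of the NMuMG range, and ES cells were below every other replicate. The NIH3T3 to NMuMG difference did not pass the test (0.06, SE 0.471, 95% interval -0.99 to 1.10, adjusted p = 0.950), and the value depends on the fit: it was -0.58 without NIH3T3 replicate 1, 1.36 with library series as a replicate block (adjusted p = 0.0837) and 1.39 within series 2. ES cells were lower than NMuMG (-2.07, SE 0.471, adjusted p = 0.00280) and lower than NIH3T3 (-2.13, SE 0.503, adjusted p = 0.00396). With a pseudocount of 0.1 these were -4.64 and -4.56. Within library series 2, with 1 ES and 1 NIH3T3 replicate, they were -1.99 and -3.38 and missed the threshold (adjusted p = 0.0830 and 0.0648).

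Krt18, Krt8 and Krt19 in NIH3T3 were highest in replicate 1, at 0.386, 0.192 and 0.105 FPKM, and at or near 0 in replicates 2 and 3. Relative to NMuMG these replicate 1 values were 0.0154%, 0.0127% and 0.0118%, and 2 of the 5 other abundant NMuMG genes were below them there (Tspan8 0.00474%, Sprr1a 0.00426%) and 3 above. Replicate 1 is the NIH3T3 library that shares a series with NMuMG libraries. Krt7 ran the other way, with its highest value, 0.420 FPKM, in replicate 3. Krt14 was at 0.190, 0.575 and 0.220 FPKM in NIH3T3 and above the NMuMG replicates, where it was 0.0373 FPKM or less. The fibroblast genes (8 of 8 at 1 FPKM or more, sums of 2061 to 5395 FPKM) fitted the label of the line, and none of the 7 epithelial markers reached 1 FPKM. The highest Krt80 and the highest Trp63 (2.01, 0.264 and 0.627 FPKM in replicates 1 to 3) were both in NIH3T3 replicate 1. Replicates 2 and 3 stood in opposite order for these genes, and a link between them was not tested.

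Of the 10 keratins, 7 passed the filter for testing between lines (1 FPKM in at least 3 replicates), and Krt23, Krt5 and Krt14 did not. A gene was called where the limma adjusted p over all 12350 genes tested was under 0.05 and the change at least 2-fold on log2(FPKM + 1), a scale that understates changes of low genes. Between ES cells and NMuMG 7 of the 7 were called, 1 higher (Krt17) and 6 lower, with 45.8% of all genes called (19.4% higher and 26.4% lower). Between NIH3T3 and NMuMG 5 were called, all lower, with 25.0% of all genes called (14.4% lower). Krt17 and Krt80 were not called there. Between ES cells and NIH3T3 5 were called, Krt8, Krt18, Krt19 and Krt17 higher in ES cells and Krt80 lower, with 43.0% of all genes called (20.1% higher and 23.0% lower). The keratins that passed the filter only through 1 line, NMuMG for Krt20 and ES cells for Krt17, had to differ, as did those lifted by high NMuMG levels, so these counts describe them and support nothing further. The comparisons share samples, and each gives its own values.

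From NMuMG to NIH3T3 the log2 change was -11.12 for Krt18 (SE 0.297, adjusted p = 2.04e-09), -10.46 for Krt8 (SE 0.288, adjusted p = 2.10e-09), -9.72 for Krt19 (SE 0.197, adjusted p = 5.54e-10) and -8.56 for Krt7 (SE 0.262, adjusted p = 3.76e-09). The sizes of these changes depend on the pseudocount. With 0.1 they were -13.83 for Krt18, -13.33 for Krt8, -12.71 for Krt19 and -10.51 for Krt7. Krt20, listed at 0 in NIH3T3, was called with adjusted p = 1.53e-06. It was not called within series 2 (adjusted p = 0.0609) or with parental cultures only (adjusted p = 0.108), fits that hold 1 NIH3T3 replicate, also at 0. ES cells exceeded NIH3T3 by 3.08 for Krt18 (SE 0.318, adjusted p = 1.55e-05), 2.96 for Krt8 (SE 0.308, adjusted p = 1.63e-05) and 2.44 for Krt19 (SE 0.210, adjusted p = 4.36e-06). These sizes rest on the pseudocount, since NIH3T3 is near 0: with 0.1 in place of 1 they were 5.64 for Krt18, 5.64 for Krt8 and 5.17 for Krt19. Krt17, at 0 in NIH3T3, was also called higher in ES cells (adjusted p = 0.000157). Within series 2, with 1 ES and 1 NIH3T3 replicate, 3 of these 5 calls were left, and Krt19 (2.70, adjusted p = 0.0685) and Krt80 missed the threshold.

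**Figure D2:**
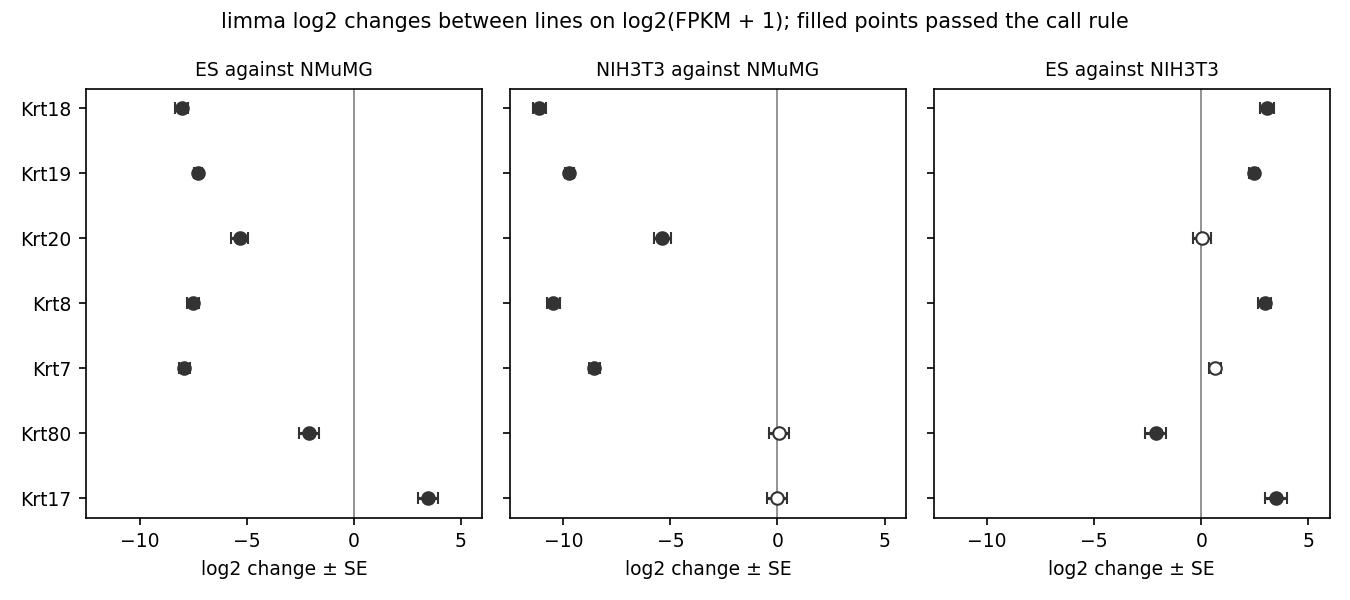
The limma log2 change with its standard error (bars) for the 7 tested keratins in the comparisons of ES with NMuMG, NIH3T3 with NMuMG and ES with NIH3T3, on log2(FPKM + 1); filled points passed the call rule. Changes of Krt20 against NIH3T3 and of Krt17 against NIH3T3 set a group at 0 against the pseudocount of 1, so their size has no meaning as a fold. The sizes for Krt18, Krt8, Krt19 and Krt7 in comparisons with NIH3T3 also depend on the pseudocount.

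The balance of type I to type II keratin was tight within NMuMG. The type I share of the 10 keratins' summed FPKM was 62.6%, 61.8%, 64.2% and 64.4% in NMuMG replicates 1 to 4, 63.2% ± 1.27 (SD, n = 4), or 1.72 ± 0.0939 type I per type II. In ES cells it was 71.3%, 73.5% and 78.7% (74.5% ± 3.77, n = 3), above every NMuMG replicate. The difference of 11.3 percentage points had p = 0.0571 in an exact two-sided permutation test, the smallest p that 4 against 3 samples allow, and 0.152 after Benjamini-Hochberg adjustment over 8 such comparisons. Without Krt17 the type I share of ES cells was 61.9% ± 3.12, next to 63.2% in NMuMG, and with every keratin symbol of the tables, Krt42 included, it was 79.6%. Within both series that hold the 2 lines the ES share was the higher, at 71.3% and 73.5% against 62.6% and 61.8% in series 1 and 78.7% against 64.2% and 64.4% in series 2.

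**Figure D3:**
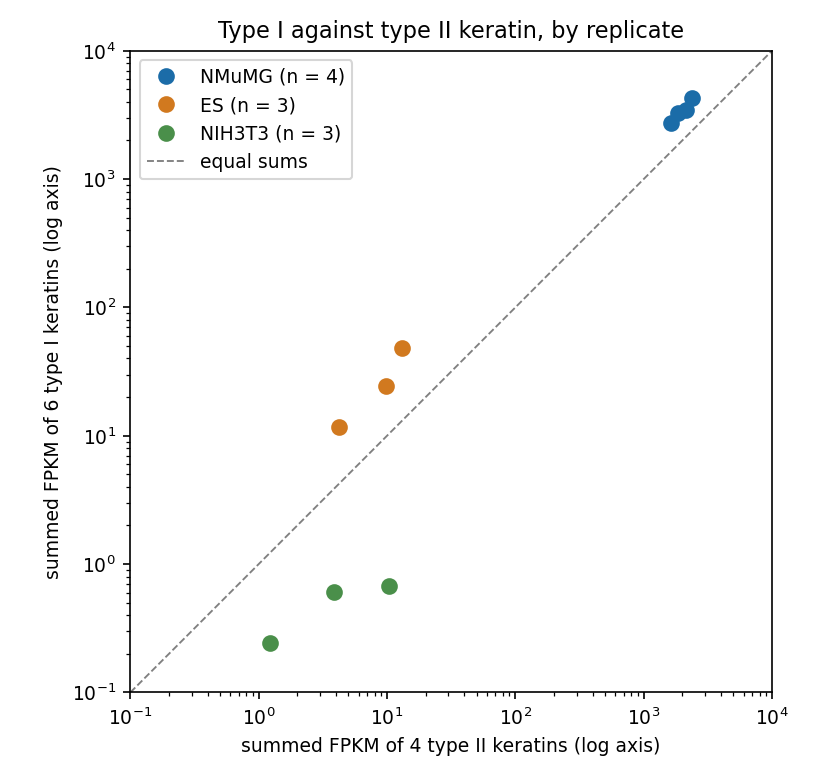
Summed FPKM of the 6 type I keratins (y axis) against that of the 4 type II keratins (x axis), both on log axes, for each replicate of NMuMG (blue), ES (orange) and NIH3T3 (green); the dashed line marks equal sums. NMuMG and ES replicates lie above the line (1.72 and 2.98 type I per type II on average) and NIH3T3 replicates below it.

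In NIH3T3 the type I share was only 6.16%, 13.5% and 16.4%, of sums of 11, 4.48 and 1.48 FPKM. Krt80 alone made up 55.2% to 90.9% of these sums, and no type I keratin of the set reached 1 FPKM there. With Krt10 and the other keratin symbols counted, the type I share of NIH3T3 was 51.1% ± 24.8. The NIH3T3 balance was not put to a test.

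Within the simple pair, Krt18 exceeded Krt8 in every NMuMG and ES replicate. The ratio of Krt18 to Krt8 was 1.57, 1.43, 1.78 and 1.87 in NMuMG (1.66 ± 0.198, n = 4) and 1.35, 1.16 and 1.01 in ES cells (1.17 ± 0.169, n = 3). The ranges did not overlap, and the exact two-sided permutation test on log2 ratios again gave its smallest possible value, p = 0.0571 (adjusted p = 0.152). The 2 technical runs of ES replicate 2 gave ratios of 1.01 and 1.33, which span most of the ES range. The ratio also depends on how reads shared between Krt8 and Krt8-ps were assigned. Krt19 made up 25.8% ± 1.90 of type I FPKM in NMuMG and 20.5% ± 9.14 in ES cells, which overlapped (exact permutation p = 0.286).

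The mix itself was stable in NMuMG: Krt18 took 43.7% to 48.1% of the summed FPKM, Krt8 24.9% to 30.6%, Krt19 15.1% to 17.4%, Krt7 7.58% to 10.6% and Krt20 0.429% to 1.28%. In ES cells Krt17 took 23.7% to 47.6%, Krt18 19.9% to 31.8%, Krt8 19.7% to 23.7% and Krt19 10.1% to 22.5%. Krt7 took 1.41% to 4.82% in ES cells, below every NMuMG replicate. Replicate 3, with the highest Krt17, gave the upper end of the Krt17 range and the lower end of the other 3.

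**Figure D4:**
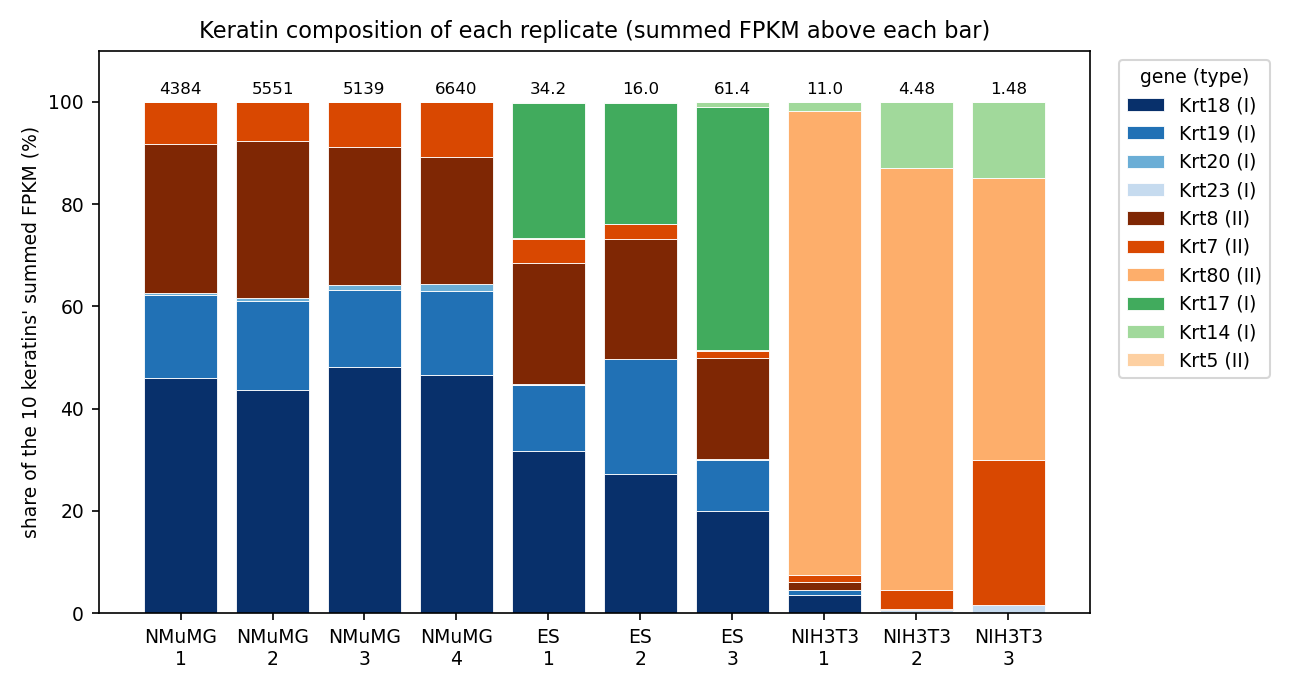
Share (percent) of each of the 10 keratins in their summed FPKM for each replicate of NMuMG, ES and NIH3T3 (stacked bars), with the summed FPKM in numbers above each bar. NMuMG bars are alike, ES bars add Krt17 (23.7% to 47.6%), and NIH3T3 bars are mostly Krt80 with sums of 1.48 to 11 FPKM.

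Krt18, Krt8, Krt19, Krt7 and Krt20 were somewhat higher in BRE reporter than in parental cultures of NMuMG, in both pairs of the same Bio number. None passed the test. The ratio of reporter to parental FPKM in the first and second pair was 1.20 and 1.25 for Krt18, 1.33 and 1.19 for Krt8, 1.36 and 1.42 for Krt19, 1.19 and 1.59 for Krt7 and 1.82 and 1.79 for Krt20. Krt80 was split, at 1.08 and 0.580. Only Krt8, Krt19 and the sum of the 10 keratins were higher in both reporter replicates than in both parental ones. Krt23 and Krt5, at 0.328 FPKM or less, were lower in both reporter replicates than in both parental ones. The share of all genes that separate in this way was not counted, so these separations are a description. The log2 change was 0.48 for Krt19 (SE 0.249, 95% interval -0.14 to 1.10), 0.83 for Krt20 (SE 0.570, -0.59 to 2.24), 0.46 for Krt7 (SE 0.30, -0.29 to 1.21), 0.33 for Krt8 (SE 0.462, -0.82 to 1.48) and 0.29 for Krt18 (SE 0.439, -0.80 to 1.39), all with limma adjusted p = 1.00. None of the 7 tested keratins was called, with 0.212% of 12276 genes called, and none had an unadjusted p under 0.05, the lowest being 0.107 for Krt19.

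**Figure D5:**
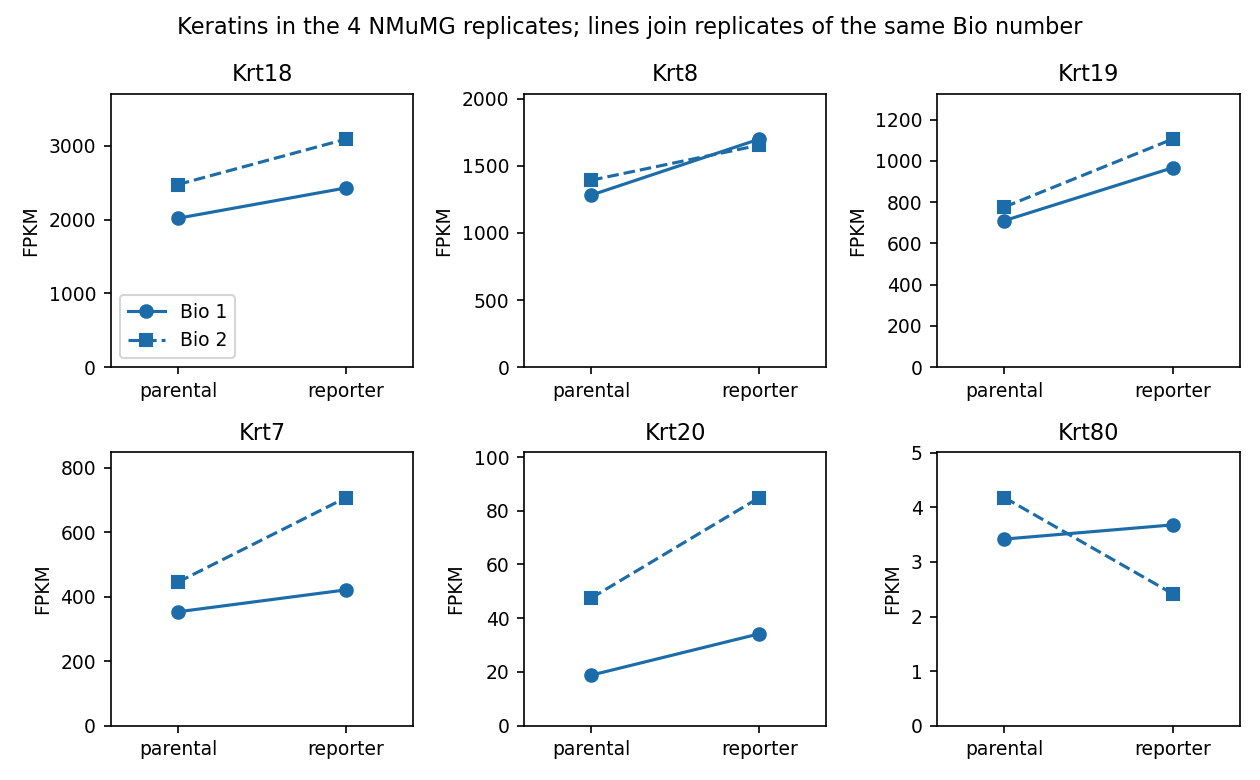
FPKM (y axes, from 0) of 6 keratins in parental and BRE reporter cultures of NMuMG, 1 point per replicate; lines join the replicates of the same Bio number (circles Bio 1, squares Bio 2). Both lines rise for Krt18, Krt8, Krt19, Krt7 and Krt20 without passing the test, and for Krt80 they cross.

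Krt20 differed between the Bio numbers by more than between the cultures: the second replicate was 2.53 times the first among parental and 2.49 times among reporter cultures. For Krt18 these ratios were 1.23 and 1.27, and for Krt8 1.09 and 0.973. The summed keratins were 1.27 and 1.29 times higher in the reporter cultures of the 2 pairs (exact two-sided permutation p = 0.333, the smallest that 2 against 2 allow). The type I share did not follow, at 63.1% ± 1.89 in reporter and 63.4% ± 1.09 in parental cultures (n = 2 each, exact permutation p = 1.00).

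In ES cells the parental replicate lay between the 2 reporter replicates for Krt8, Krt18, Krt19 and Krt17, and above both for Krt7 (-0.68 log2, SE 0.367, limma adjusted p = 0.719). None of the 7 keratins was called between ES reporter and parental cells, where 0.0978% of all genes were, and none had an unadjusted p under 0.05. The single parental ES replicate takes its spread in this fit from the remaining groups. With ES replicate 2 left out Krt17 was called higher in reporter cells (1.60, adjusted p = 0.0156), and with replicate 3 left out it was called lower (-1.06, adjusted p = 0.0163). The reporter difference itself was compared between NMuMG and ES cells with an interaction term, and no keratin passed (Krt7 1.14, SE 0.474, adjusted p = 0.646), where 0.0244% of all genes did.

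The genes outside the keratins whose pattern over the 10 replicates was nearest to the simple keratins were NMuMG-high genes. A gene near a keratin that is high in NMuMG has to be high there too, so this is a description. The measure was the root mean square difference in log2(FPKM + 1), each gene centred on its mean, over a pool of 12341 genes. Krt7 was nearest to Rbp4 (0.29), the retinol carrier, Tspan8 (0.31), a tetraspanin, and Anxa13 (0.36), an annexin of epithelial cells. Krt19 was nearest to Rbp4 (0.70), Tspan8 (0.73) and Wfdc2 (0.80), Krt8 to Tspan8 (0.95), Rbp4 (0.98) and Wfdc2 (0.99), and Krt18 to Tspan8 (1.06), Clu (1.09) and Rbp4 (1.14). Among the keratins themselves the distance was 0.33 for Krt8 and Krt18, 0.37 for Krt8 and Krt19 and 0.63 for Krt18 and Krt19. Krt7 was at 0.76 from Krt19, 1.03 from Krt8 and 1.19 from Krt18. Its 3 nearest genes outside the keratins had smaller distances. Those are the smallest out of 12341 genes, so they cannot be set against the distances to a few keratins. Tspan8 averaged 552 ± 62.8 FPKM over the NMuMG replicates and 0.647 ± 0.419 over the ES replicates, and Rbp4 452 ± 171 and 0.793 ± 0.405. Wfdc2, of the whey acidic protein domain family, averaged 493 ± 255 and 8.81 ± 2.88 FPKM.

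Among genes whose products anchor or bind keratin filaments, some were lower outside NMuMG and none was called higher there. Of 17 such genes 14 were tested: 8 were lower in ES cells than in NMuMG and none higher (median log2 change -1.35, against -0.09 over all genes, of which 26.4% were called lower). In NIH3T3 7 were lower than in NMuMG and 7 not called (median -1.69, against -0.05 over all genes, of which 14.4% were called lower). Some of these genes passed the filter only through their NMuMG levels, so the counts are a description. Itgb4, the hemidesmosome integrin chain that keratin filaments attach to through plectin, was at 31.5, 48.6, 42.9 and 86.4 FPKM in NMuMG. Every ES and NIH3T3 replicate was listed at 0. Ppl (periplakin), a linker of keratins to the cell periphery, fell from 34.1 to 42.5 FPKM in NMuMG to 0.616 to 0.804 FPKM in ES cells (-4.51, SE 0.143, adjusted p = 4.14e-09) and 0.0228 to 0.159 FPKM in NIH3T3 (-5.20, SE 0.143). Between ES cells and NIH3T3, 7 were higher in ES cells, where 20.1% of all genes were, led by the desmosomal plaque gene Pkp2 (2.53, SE 0.214, adjusted p = 3.79e-06) and Pkp3 (1.29, SE 0.286). Plec (plectin) was the largest of the 2 that were lower in ES cells (-2.60, SE 0.204, adjusted p = 2.26e-06).

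Other intermediate filament genes divided the lines differently from the keratins. Of 16 genes 11 were tested, and 7 were higher and 3 lower in ES cells than in NMuMG (median 1.21, against -0.09 over all genes, of which 19.4% were called higher and 26.4% lower). Ina (internexin) at 50, 16.0 and 28.5 FPKM and the neurofilament gene Nefh at 11.1, 7.62 and 10.8 FPKM were listed at 0 in both other lines. Ina, Nefh and the list genes Nefl and Prph passed the filter only through their ES levels and had to differ. Des (desmin) also needed its ES levels to pass, since elsewhere only 1 NMuMG replicate, at 1.27 FPKM, reached 1 FPKM. The counts and the median are therefore a description. Lmna, the A-type lamin gene of differentiated cells, was lower in ES cells (-3.75, SE 0.192, adjusted p = 8.68e-08), as was Nes (nestin, -3.62, SE 0.472). Between NIH3T3 and NMuMG 1 gene was higher and 1 lower, where 25.0% of all genes were called. Vim (vimentin), the filament of mesenchymal cells, was at 1604 to 2361 FPKM in NIH3T3 and at 397 to 720 FPKM in NMuMG (1.87, SE 0.298, adjusted p = 0.000581), so NMuMG held vimentin together with its keratins. Nes was lower in NIH3T3 (-4.59, SE 0.472, adjusted p = 2.38e-05).

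Epithelial regulators and junction genes were split between ES cells and NMuMG, with some members higher in each. Of 13 tested epithelial transcription factors 5 were higher and 5 lower in ES cells (median 0.53, against -0.09 over all genes, of which 19.4% were called higher and 26.4% lower): Tfap2c (3.61, adjusted p = 6.16e-07) and Grhl3 (3.22, adjusted p = 1.45e-07) led those higher, and Hnf4a (-5.89, adjusted p = 2.11e-09) and Ehf (-5.42, adjusted p = 1.85e-07) those lower. In the marker list of epithelium 4 of 6 tested genes were higher in ES cells and 2 lower, beside the same shares over all genes. Epcam was at 62.8 to 77.7 FPKM in ES cells and 2.10 to 7.57 FPKM in NMuMG, and Esrp1 at 3.88 to 15.7 FPKM against 0.0333 or less, whereas Cdh1 was at 73.4 to 88.9 against 150 to 195 FPKM. In NIH3T3, 7 of the 13 factors were lower than in NMuMG, where 14.4% of all genes were, led by Hnf4a (-6.28, adjusted p = 1.92e-09), and 1 was higher, Tfap2a (1.20, SE 0.313, adjusted p = 0.0113). All 5 factors higher in ES cells passed the filter only through that line, and Hnf4a, Ehf, Foxa1 and Cdx2 only through NMuMG. Cldn4, Cldn7 and Esrp1 likewise passed only through ES cells. These genes had to differ, so the counts and p-values describe them and support nothing further.

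Of the genes of the cornified envelope, the hardened layer of stratified epithelium, between 1 and 4 reached 1 FPKM in each replicate. Sprr1a, a small proline-rich envelope precursor, was at 1345, 2216, 786 and 620 FPKM in NMuMG, overlapping the ranges of Krt8 and Krt19, and at 0.224 to 0.618 FPKM in ES cells (-9.61, SE 0.365, adjusted p = 1.07e-08). Sbsn (suprabasin) was at 5.04 to 23.5 FPKM in NMuMG, 16.0 to 39.2 in NIH3T3 and 0.258 to 0.937 in ES cells (ES against NMuMG -2.97, SE 0.448, adjusted p = 0.000198). Of the 4 tested genes 3 were lower in ES cells than in NMuMG, where 26.4% of all genes were, and 1 was higher, where 19.4% were: the cross-linking enzyme gene Tgm1, at 8.30, 12.3 and 13.3 FPKM against 0.116 or less (3.51, SE 0.159, adjusted p = 4.01e-08). Sprr1a and Ivl passed the filter only through NMuMG and Tgm1 only through ES cells. These genes had to differ, so the counts are a description. No gene of these 4 lists was called between reporter and parental NMuMG cells.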

How the data were processed

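Total RNA (RNeasy) was made into NEBNext Ultra RNA libraries and sequenced on an Illumina HiSeq, per the labels. The deposited values are FPKM per gene, made by the authors with bcl2fastq 1.8.4, TopHat and Cufflinks on mm10, per the submitters' processing notes; the roles and other versions are not given in the sources used here. All 11 library tables hold 23849 entries, summed here to 23355 symbols, and 3 symbols with failed or too-deep loci were left out. The 2 technical runs of ES replicate 2 were averaged. Depth per library is unknown, so no counting interval is given.

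Differences were tested with limma 3.58.1 (R 4.3.3) after taking log2(FPKM + 1), letting the variance prior follow the mean level, with Benjamini-Hochberg adjustment: 1 fit over 10 replicates and 3 lines (12350 genes, those reaching 1 FPKM in 3 or more replicates) and 1 over 7 NMuMG and ES replicates by culture (12276 genes, 2 or more replicates). The fits were tested on simulated data. Shares and ratios were compared with exact permutation tests (SciPy 1.17.1). Alternatives were a pseudocount of 0.1, no filter, quantile normalization, each technical run, each library series, parental cultures only, a replicate block and leaving out each replicate. Within library series 2, ES against NIH3T3, and the shares without Krt17 were added after seeing the data. Deviations from the line means of NMuMG and ES replicates of the same Bio number correlated at 0.163 to 0.289 in 6 pairs. Those of different numbers correlated at -0.362 to -0.121. In these lines the Bio number coincides with the library series, so the 2 cannot be told apart. Deviations from a line mean sum to 0 and the pairs share libraries, so these correlations are not independent.

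The named genes were the 10 keratins, other keratins reaching 1 FPKM, the 3 genes nearest to each of Krt8, Krt18, Krt7 and Krt19, and the 2 largest called changes of each list in each direction; list genes given beyond these (and all marker values) were chosen after their values were seen. The keratins and the lists were chosen with earlier results of these data known. Sequences and positions of promoters are from RefSeq (GRCm38.p6), and shared windows from GENCODE M21 transcripts. Motifs were counted on both strands.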

Additional observations from a re-analysis of the deposited data

Results flagged for a closer look

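Krt14 in NMuMG replicate 2 stood apart from the other 3 replicates, at 0.0373 FPKM where the others were listed at 0. It was picked out by a rule for a single sample that lies far from the rest of its group. Chance meets that rule in about 1 in 20 groups of continuous values. Where the other 3 replicates are listed at 0, any value above 0 meets it, so that rate does not hold here. The value is far under 1 FPKM.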

How the results depend on the processing

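The number of keratins called stayed within 1.5 times the reported count under every alternative run, with these exceptions. Between ES cells and NIH3T3 it fell from 5 to 3 within library series 2. Between ES reporter and parental cells it ranged from 0 to 1 when single replicates were left out, the 1 being Krt17 with opposite signs (1.60 without ES replicate 2, -1.06 without replicate 3). With the replicate block (paired by library series or Bio number), 7, 5 and 5 keratins were called in the 3 line comparisons and 0 between cultures, and no call changed. The type I share of ES cells moved from 74.5% to 79.6% with every keratin symbol and to 61.9% without Krt17. Krt80 between NIH3T3 and NMuMG changed sign to -0.08 with a pseudocount of 0.1. It ranged from -0.58 to 0.72 when single replicates were left out (-0.58 without NIH3T3 replicate 1, -0.06 without NMuMG replicate 4), was 1.36 with the replicate block, 1.39 within series 2 and 1.21 with parental cultures only, and was called in none of these. Uncalled reporter differences also changed sign: Krt18 in NMuMG was -0.03 after quantile normalization. With single replicates left out, the ES differences ranged from -0.93 to 0.53 for Krt8, -1.15 to 0.15 for Krt18, -0.23 to 0.42 for Krt19, -0.03 to 0.05 for Krt20, -1.06 to 1.60 for Krt17 and -0.05 to 0.02 for Krt80. With the replicate block Krt19 was -0.06, Krt20 -0.44, Krt17 -0.18 and Krt80 0.01, and Krt80 was 0.01 after quantile normalization. A pseudocount of 0.1 made Krt7 higher in ES cells than in NIH3T3 (1.62, adjusted p = 0.00940). For each of these the cause was not tested. Of the single-gene values 509 kept direction and side of the threshold, 15 changed sign and 6 lost the call; calls were gained by Krt7 and by Krt17 as given above. Without read counts, differences among values under 1 FPKM cannot be placed against counting error.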
